A study of Mus musculus with 10 samples.

Results

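Ttr, Folr1, Kl, Clic6, Aqp1, Enpp2, Prlr and Sostdc1 are 8 genes used as markers of the choroid plexus epithelium. They were taken by gene symbol from the count tables of 10 mouse RNA-seq libraries, where all 8 were found among 50559 genes. All 8 also passed the filter on low counts, which kept 29952 genes for the tests. The rule that picked them used gene symbols only, but the markers were chosen with earlier results of these data known. Their counts beside the shares over all genes are therefore descriptions.

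The choroid plexus is a folded sheet of secretory epithelium that lies in the ventricles of the brain, including the fourth ventricle next to the cerebellum. Its cells produce cerebrospinal fluid by moving ions and water from the blood side to the ventricle, take up vitamins and hormones, and release carrier proteins and growth factor antagonists into the fluid. The epithelium arises from the roof plate, whereas cerebellar granule cell precursors (GCPs) arise from the neighboring rhombic lip, and a piece of cerebellar tissue may or may not carry choroid plexus with it.

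MYC/SMARCA4 tumors (n = 4) grew in CD1nu/nu host mice, an immunodeficient strain, after transplantation of GCPs that were taken from tamoxifen-induced Math1-creERT2::Smarca4fl/fl pups and given murine Myc with a lentivirus. Their host mice were 112, 96, 89 and 79 days old. Sonic hedgehog medulloblastomas (SHH MB, n = 3) came from Math1-cre::Smofl/wt mice aged 7 days, in which an activated Smo allele is switched on in cells of the Math1 lineage. Control cerebella (n = 3) were whole cerebella of Math1-creERT2::Smarca4fl/fl mice aged 7 days (P7). These mice were injected with tamoxifen (0.4 mg) at P3, so the controls carried the same Smarca4 deletion system as the transplanted cells. The Math1 promoter directs recombination to the granule lineage, so choroid plexus cells and most other cells of these mouse lines should keep unrecombined alleles. Recombination in choroid plexus cells was not measured here. Host cells are of the CD1nu/nu strain and not of these lines. All RNA came from formalin-fixed, paraffin-embedded (FFPE) tissue, and the MYC/SMARCA4 tumors were sampled as biopsy punches. How the SHH MB tissue was sampled is not stated in the sources used here. Host age, host strain, transplantation and tissue sampling all differ between the MYC/SMARCA4 tumors and the P7 cerebella and cannot be told apart from the tumor genotype. Age, mouse line and transplantation also differ between the MYC/SMARCA4 tumors and the SHH MB, and tissue sampling may differ too. They cannot be told apart from the tumor type in that comparison either.

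The libraries held 5663491 to 9352109 counts. CPM values, which are counts scaled to a common library size with edgeR's TMM factors, are used for levels, and 3 counts, taken as the floor of detection, correspond to 0.307 to 0.744 CPM. Myc, the transduced gene, had 614 to 11342 counts in the 4 MYC/SMARCA4 tumors, 247 to 322 in the SHH MB and 91 to 131 in the P7 cerebella. Smarca4 averaged 207 CPM in MYC/SMARCA4 tumors, 542 CPM in SHH MB and 254 CPM in P7 cerebella. These are counts over the whole gene, which do not show whether the floxed part is deleted. MYC/SMARCA4 tumors differed far more among themselves than the other libraries did, with a chi-square per degree of freedom over genes of 26.6 to 99.1 for pairs of tumors and 3.76 to 6.22 for pairs within the other groups. The labels do not say more about how separate samples of a group were obtained, so the p-values measure the spread between these samples. In bulk tissue, fewer choroid plexus cells and less RNA of a gene per cell cannot be told apart. SHH MB 3 had the lowest level of the 3 SHH MB in all 8 genes, and values without it are given with the spread of that group.

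The 8 genes lie on 7 chromosomes of the mouse genome (GRCm39, GENCODE). Enpp2 (chr15:54701324-54816288, minus strand) and Prlr (chr15:10177258-10349959, plus strand) are both on chromosome 15. Folr1 is at chr7:101507537-101520014 on the minus strand, Kl at chr5:150876072-150917284, Clic6 at chr16:92282624-92338739, Aqp1 at chr6:55313068-55325540 and Sostdc1 at chr12:36364137-36368451, the last 4 on the plus strand. All 8 are protein-coding. Folr1, Kl, Clic6, Aqp1 and Sostdc1 share no exon bases with another annotated gene. Exons of Ttr overlap Gm16090 and those of Enpp2 overlap Gm26684, both on the opposite strand, while Prlr overlaps Gm21973 on its own strand and Gm41268 and Gm41269 on the other, so their counts may be shared with these genes if strand was not used.

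RefSeq promoter windows (build GRCm38.p6) are given for 3 of the 8 genes, namely Kl, Aqp1 and Prlr. Ttr was left out of this search, and no window was found for Folr1, Clic6, Enpp2 and Sostdc1. The bases before the annotated start sites are shown because the windows of these 3 genes differ strongly in base composition. Like all 8 genes, they lay on the low side in MYC/SMARCA4 tumors. Each run holds 250 bases ending just before the start, on the plus strand, and capitals mark the single motif match that was found.
Kl, chr5:150952357-150952606: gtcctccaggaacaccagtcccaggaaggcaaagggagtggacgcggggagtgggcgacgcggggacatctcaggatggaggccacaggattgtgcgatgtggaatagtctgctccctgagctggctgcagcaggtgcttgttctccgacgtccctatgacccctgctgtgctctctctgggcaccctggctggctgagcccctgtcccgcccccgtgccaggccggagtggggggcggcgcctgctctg
Aqp1, chr6:55336049-55336298: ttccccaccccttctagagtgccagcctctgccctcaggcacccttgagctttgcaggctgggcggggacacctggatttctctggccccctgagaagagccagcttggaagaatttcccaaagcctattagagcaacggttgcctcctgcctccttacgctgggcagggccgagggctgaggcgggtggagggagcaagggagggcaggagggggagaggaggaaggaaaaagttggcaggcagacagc
Prlr, chr15:10223656-10223905: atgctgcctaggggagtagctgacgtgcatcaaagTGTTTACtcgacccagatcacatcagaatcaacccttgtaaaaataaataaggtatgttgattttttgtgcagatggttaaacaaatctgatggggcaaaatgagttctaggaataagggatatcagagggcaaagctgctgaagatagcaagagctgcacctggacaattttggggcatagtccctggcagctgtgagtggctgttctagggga
The Kl window was 66.8% G and C with 13 CpG dinucleotides, that of Aqp1 62.0% with 5, and the printed window of Prlr 44.8% with 2. Prlr has 2 further windows, with 48.0% and 32.8% G and C. Searched on both strands, the bicoid-type homeodomain motif TAATCC, which OTX factors bind, the E-box CACGTG, which MYC and MAX bind, and the TATA box TATAAA were not matched in any of the 5 windows. These letters were present in 6.25%, 6.02% and 12.4% of all 32851 promoter windows, respectively. The forkhead motif TGTTTAC was matched once, 215 bases before the printed Prlr start, and is present in 3.17% of all windows. A match describes letters only, and no match says nothing about the factor.

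Among the secreted proteins, Ttr encodes transthyretin, the carrier of thyroid hormone and of retinol-binding protein that choroid plexus cells make in very large amounts. The gene reached 517, 1097 and 603 CPM in P7 cerebella 1, 2 and 3. In SHH MB 1, 2 and 3 it reached 841, 1192 and 229.5 CPM. MYC/SMARCA4 tumors 1, 2, 3 and 4 had 1.98, 0.180, 3.08 and 0.854 CPM, from only 8, 1, 22 and 7 counts. All 4 tumors were thus far below every library of the other groups, and tumor 2 was under the floor of detection. Ttr was 480-fold lower in MYC/SMARCA4 tumors than in P7 cerebella (log2 fold change -8.91, SE 0.81, adjusted p = 0.000273, edgeR quasi-likelihood test with Benjamini-Hochberg adjustment over all genes tested). By p-value it ranked 6 of 29952 genes in that comparison. Against SHH MB the gene was 490-fold lower (log2 fold change -8.94, SE 0.81, adjusted p = 7.62e-05, same test). The comparisons share the 4 MYC/SMARCA4 tumors. Ttr levels of SHH MB and P7 cerebella overlapped, with a log2 difference of 0.03 and a 95% interval from -1.34 to 1.40.

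Enpp2 encodes autotaxin, a secreted enzyme that makes lysophosphatidic acid and that is also made by myelinating oligodendrocytes. Its levels were 112, 139 and 97.4 CPM in P7 cerebella and 106, 147 and 42.9 CPM in SHH MB. In MYC/SMARCA4 tumors 1 to 4 the gene had 68.4, 47.9, 4.62 and 19.8 CPM. Every tumor lay below the P7 cerebella, and tumors 1 and 2 lay above SHH MB 3. The tumors themselves were spread far more widely than the P7 cerebella. With that spread, the log2 fold change of -1.73 (SE 0.64) against P7 cerebella did not pass the test (edgeR quasi-likelihood adjusted p = 0.120). Against SHH MB the log2 fold change was -1.50 with an adjusted p of 0.217 in the same edgeR test.

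Sostdc1 encodes a secreted inhibitor of BMP and WNT signaling. It had 4.09, 8.95 and 5.56 CPM in P7 cerebella and 8.25, 13.6 and 2.84 CPM in SHH MB. The 4 MYC/SMARCA4 tumors held 0.248, 0.900, 3.22 and 1.95 CPM, from 1, 5, 23 and 16 counts. They did not overlap the P7 cerebella, but tumor 3 lay above SHH MB 3. The log2 fold changes were -1.89 (SE 0.65, edgeR quasi-likelihood adjusted p = 0.0974) against P7 cerebella and -2.30 (SE 0.65, adjusted p = 0.0647) against SHH MB, so that neither passed the test.

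Of the receptors, Folr1 encodes folate receptor alpha, through which the choroid plexus carries folate into the cerebrospinal fluid. It had 4.39, 5.79 and 4.85 CPM in P7 cerebella and 7.16, 6.83 and 2.699 CPM in SHH MB. In MYC/SMARCA4 tumors the gene had 1.74, 0.360, 5.32 and 2.07 CPM. Tumor 3 lay within the range of both other groups, and tumor 2 with 2 counts was under the floor. Folr1 did not pass the test in either comparison (log2 fold change -1.04 against P7 cerebella and -1.19 against SHH MB, edgeR quasi-likelihood adjusted p = 0.298 and 0.311).

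Prlr encodes the prolactin receptor, a receptor of this epithelium for the hormone prolactin. P7 cerebella had 12.0, 14.0 and 11.3 CPM, SHH MB had 6.22, 8.25 and 4.97 CPM, and MYC/SMARCA4 tumors had 3.22, 1.80, 9.09 and 4.64 CPM. Both tumor types were below the P7 cerebella in every library, and they overlapped each other, with tumor 3 above all 3 SHH MB. Prlr was the only one of the 8 genes for which SHH MB and P7 cerebella did not overlap. None of its 3 log2 fold changes passed the edgeR quasi-likelihood test, with -1.38 for MYC/SMARCA4 tumors against P7 cerebella (adjusted p = 0.0837), -0.45 against SHH MB (adjusted p = 0.628) and -0.93 for SHH MB against P7 cerebella (adjusted p = 0.627). Fitted on the SHH MB and P7 libraries alone, the last difference was -0.90 with an edgeR adjusted p of 0.0049, which is short of the fold threshold used for calls.

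Kl encodes alpha-klotho, the co-receptor of FGF23, which is shed into the cerebrospinal fluid and is also made by some neurons. It had 10.7, 16.4 and 14.1 CPM in P7 cerebella and 13.2, 20.9 and 5.82 CPM in SHH MB. In MYC/SMARCA4 tumors 1 to 4 it had 2.48, 7.02, 7.56 and 3.17 CPM. All 4 tumors lay below the P7 cerebella, while tumors 2 and 3 exceeded SHH MB 3. The log2 fold changes of -1.43 (SE 0.47) and -1.38 (SE 0.47) against P7 cerebella and SHH MB had edgeR quasi-likelihood adjusted p-values of 0.0861 and 0.118.

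Aqp1, one of the channel genes, encodes the water channel of the apical membrane that faces the ventricle. It had 13.3, 15.0 and 13.8 CPM in P7 cerebella and 12.4, 14.0 and 7.10 CPM in SHH MB. MYC/SMARCA4 tumors had 1.98, 1.08, 4.76 and 4.27 CPM, below every library of both other groups. Among the 8 genes, only Ttr and Aqp1 separated the tumors from both other groups in this way. The log2 fold change was -2.17 against P7 cerebella (SE 0.44, edgeR quasi-likelihood adjusted p = 0.0172) and -1.85 against SHH MB (SE 0.44, adjusted p = 0.0332). Aqp1 therefore fell at an adjusted p of at most 0.05 in both comparisons, yet missed the calling rule (absolute log2 fold change of at least 2.5 and adjusted p of at most 0.01). Over the alternatives tried, its adjusted p ran from 0.000119 to 0.0992 against P7 cerebella and from 0.00112 to 0.171 against SHH MB, so these results at 0.05 depended on the setting. Without tumor 3 it met the calling rule against P7 cerebella, with a log2 fold change of -2.62 and an edgeR adjusted p of 0.00404.

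Clic6 belongs to the chloride intracellular channel family. It had 12.2, 15.9 and 14.6 CPM in P7 cerebella and 22.6, 24.0 and 10.1 CPM in SHH MB. The tumors had 10.7, 2.16, 4.90 and 1.59 CPM. Tumor 1 stood highest of the 4, just under the lowest P7 cerebellum and just over SHH MB 3. Its log2 fold changes were -1.60 (SE 0.54, edgeR quasi-likelihood adjusted p = 0.0928) and -2.01 (SE 0.54, adjusted p = 0.0537) against P7 cerebella and SHH MB. Without tumor 1, Clic6 met the calling rule against SHH MB, with a log2 fold change of -2.73 and an edgeR adjusted p of 0.00174.

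**Figure D1:**
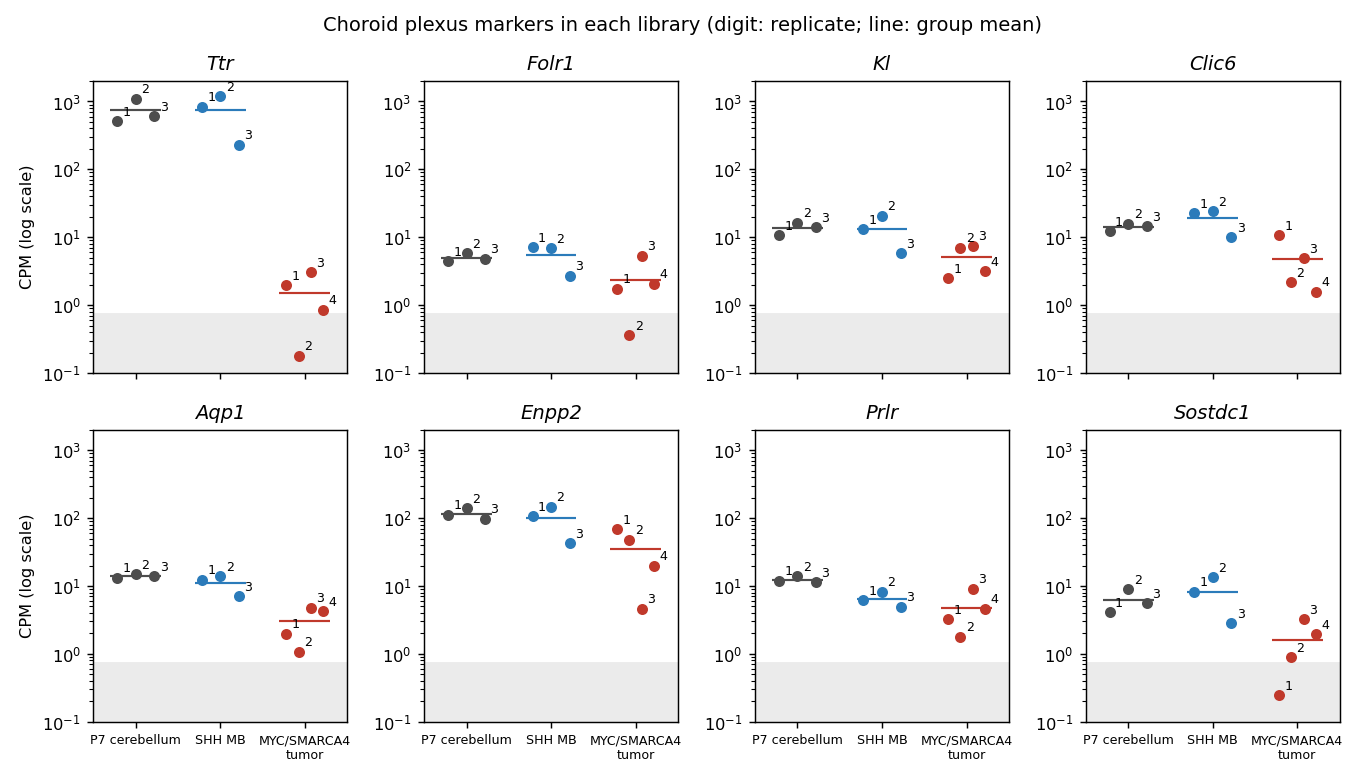
CPM of each of the 8 genes (log scale) in every library of the 3 groups, with the replicate digit beside each point, a line at the group mean and a gray band up to 0.744 CPM, the highest floor of 3 counts among the libraries. Ttr in MYC/SMARCA4 tumors lies at 0.180 to 3.08 CPM against 229.5 CPM or more elsewhere, whereas the other genes lie closer together.

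Counted together, all 8 genes had negative log2 fold changes in MYC/SMARCA4 tumors against P7 cerebella, and in 7 of the 8 the groups did not overlap. Over all genes tested, 10.7% lay without overlap on the low side. Only Ttr met the calling rule, which 0.2% of all genes met on the low side, and Ttr and Aqp1 had an adjusted p of at most 0.05, which 2.27% of all genes had on the low side. The median log2 fold change of the 8 genes was -1.67, and -1.60 without Ttr, beside -0.05 over all genes tested. On the high side, where none of the 8 genes lay, the shares of all genes were 0.0901% for the calling rule, 3.99% for an adjusted p of at most 0.05 and 10.3% without overlap.

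Compared with SHH MB, the 8 log2 fold changes were negative as well, with a median of -1.67 beside 0.01 over all genes. Ttr alone met the calling rule, beside 0.477% of all genes on the low side. Ttr and Aqp1 passed an adjusted p of 0.05, beside 2.26%, and the same 2 genes did not overlap between the groups, beside 8.3%. On the high side the shares of all genes were 0.124%, 2.43% and 7.83%, with none of the 8 genes among them. For Folr1, Kl, Clic6, Enpp2 and Sostdc1, the overlap was with SHH MB 3 alone, whereas for Prlr tumor 3 exceeded all 3 SHH MB.

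None of the 8 genes met the calling rule between SHH MB and P7 cerebella in the edgeR fit, where 0% of all genes met it on the low side and 0.01% on the high side. No adjusted p was at most 0.05, beside 0.0467% of all genes on the low side and 0.177% on the high side. None had an unadjusted p under 0.05 either, and DESeq2 called none of them. Of the 8 log2 fold changes, 4 were negative and 4 positive, from -0.93 for Prlr to 0.41 for Clic6, with a median of -0.01 beside -0.09 for all genes. The intervals were wide, from -1.72 to 1.24 for Enpp2 and from -1.01 to 1.82 for Sostdc1. The 1 gene without overlap, Prlr, stands beside 19% of all genes below and 17.8% above. In the fit of SHH MB and P7 libraries alone, Prlr had an edgeR adjusted p of 0.0049. For the other 7 genes no difference was detectable in the edgeR fit of all libraries, which does not show equal levels.

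**Figure D2:**
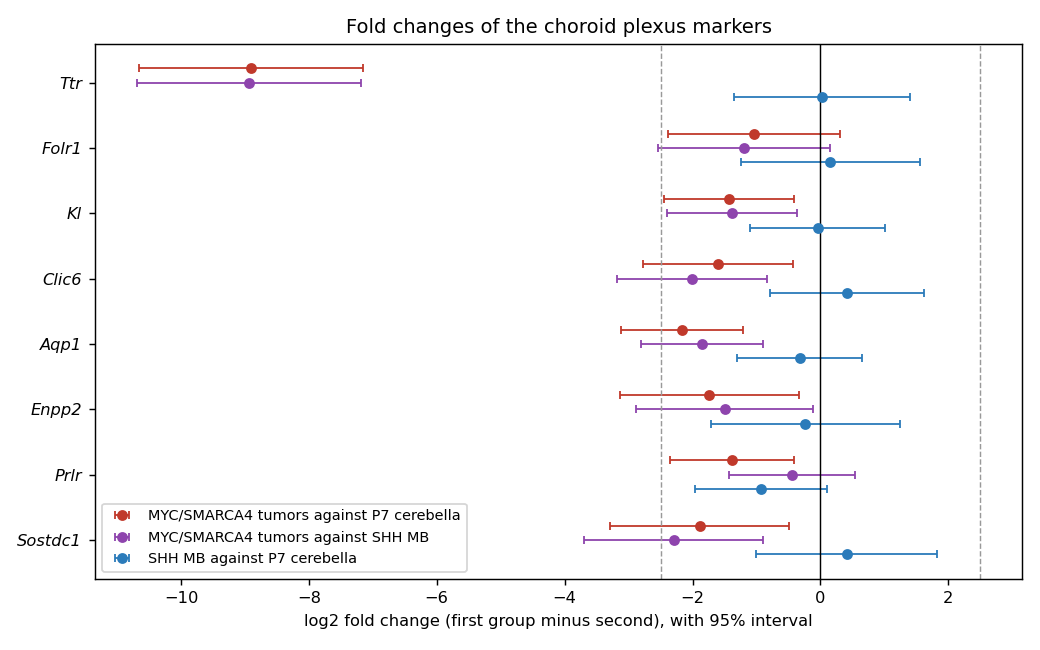
Log2 fold changes of the 8 genes with 95% intervals from the edgeR fit, for the 3 comparisons, with dashed lines at -2.5 and 2.5, the fold threshold of the calling rule. Ttr stands at -8.91 and -8.94 in MYC/SMARCA4 tumors, the other 7 genes lie between -2.30 and -0.45 in them, and the intervals of SHH MB against P7 cerebella all include 0.

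Compared per kilobase of the canonical transcript, the order of levels differed between tissues. In P7 cerebella, Ttr averaged 562 ± 238 CPM per kb (SD, n = 3) and Enpp2 24.4 ± 4.42. Behind these came Aqp1 (4.71 ± 0.286), Folr1 (3.78 ± 0.535), Sostdc1 (3.48 ± 1.40), Clic6 (3.24 ± 0.436) and Kl (2.69 ± 0.556), and then Prlr (1.19 ± 0.135). Aqp1 exceeded Folr1 by more than their spread, the neighbors from Folr1 to Kl differed by about their spread or less, and Prlr lay below Kl beyond it. SHH MB showed the same genes at both ends, with Ttr at 573 ± 370 CPM per kb, Enpp2 at 20.7 ± 11.0 and Prlr at 0.624 ± 0.159 (SD, n = 3). In MYC/SMARCA4 tumors Enpp2 led with 7.36 ± 5.97 CPM per kb (SD, n = 4), followed by Folr1 (1.79 ± 1.58), Ttr (1.16 ± 0.969), Clic6 (1.10 ± 0.946), Aqp1 (1.02 ± 0.595), Kl (0.988 ± 0.508), Sostdc1 (0.886 ± 0.729) and Prlr (0.452 ± 0.304). No neighbors in that last order differed beyond their spread.

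The make-up of the marker RNA shifted accordingly. Ttr made up 75.4%, 83.6% and 78.9% of the counts of the 8 genes in P7 cerebella and 82.7%, 83.6% and 75.0% in SHH MB. In MYC/SMARCA4 tumors its share was 2.19% (95% Wilson interval 1.11 to 4.25), 0.293% (0.0518 to 1.64), 7.24% (4.83 to 10.7) and 2.23% (1.08 to 4.53), of 366, 341, 304 and 314 counts. These intervals cover counting error only. Enpp2 held 10.3% to 16.4% of the counts in the 6 other libraries, but 75.4%, 78.0% and 51.6% in tumors 1, 2 and 4. In tumor 3 the share of Enpp2 was 10.9%, and Prlr was the gene with the most counts. With Enpp2 left out, Ttr had 1.33% to 8.89% of the remaining counts in the 4 tumors and 87.3% to 93.5% elsewhere.

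Ratios within a library show the same imbalance. In P7 cerebella there were 1.83 Kl counts for every 100 Ttr counts. At that ratio, the 22 Ttr counts of tumor 3 would go with 0.403 Kl counts, whereas 54 were counted. For Prlr the ratio predicted 0.369 counts in that library against 65 counted, and for Folr1 0.148 against 38. The mean log2 ratio of Folr1 to Ttr was 0.53 ± 0.52 in MYC/SMARCA4 tumors (SD, n = 4), -6.83 ± 0.56 in SHH MB and -7.06 ± 0.39 in P7 cerebella (SD, n = 3 each), and the tumors did not overlap the others. The 8 genes thus did not scale together in the MYC/SMARCA4 tumors.

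**Figure D3:**
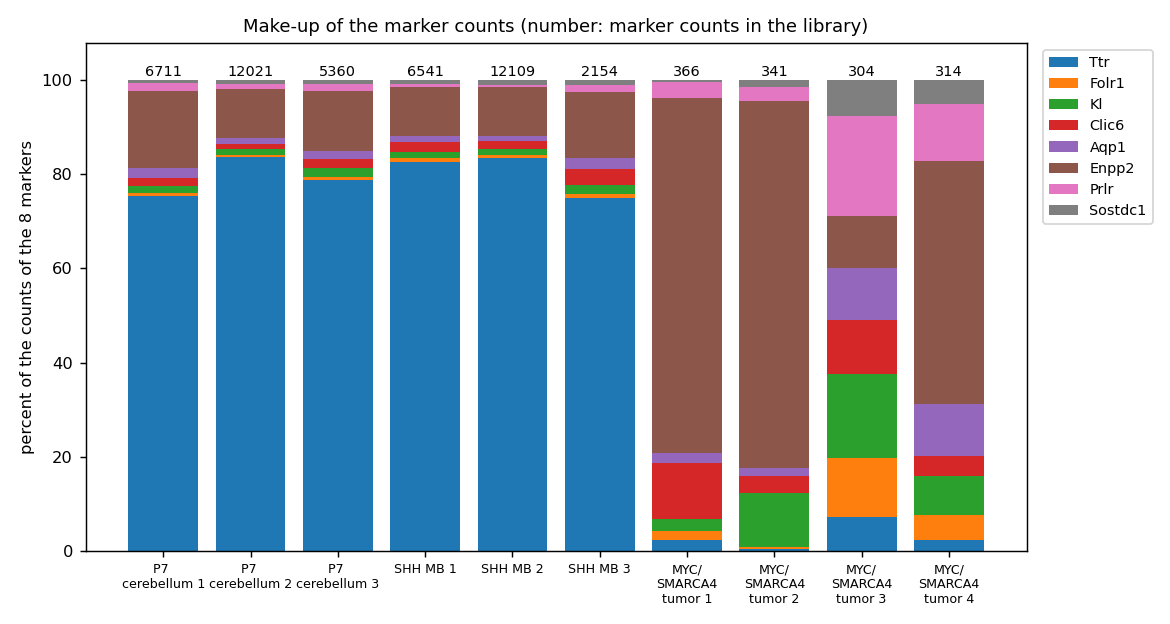
Percent of the counts of the 8 genes held by each gene in every library, with the summed counts above each bar. Ttr fills 75.0% or more of every P7 and SHH MB bar and 7.24% or less of every MYC/SMARCA4 tumor bar, where Enpp2 or Prlr is the largest part.

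The tumors that were high differed from gene to gene. Tumor 3 had the highest CPM of the 4 tumors for Ttr, Folr1, Kl, Aqp1, Prlr and Sostdc1, while tumor 1 had the highest for Clic6 and Enpp2. In Enpp2 the order of the tumors matched that of 9 myelin genes of oligodendrocytes (Mbp, Mog and others), whose summed levels were 3610, 641, 100.04 and 363 CPM in tumors 1 to 4. The same order of tumors held for the summed genes of mature granule neurons (6513, 2014, 286 and 1232 CPM), Purkinje cells, endothelium and the other choroid plexus transporters and channels, so the match was not particular to myelin. All 9 myelin genes were detected in every group. In P7 cerebella the myelin sum was 776 to 957 CPM and in SHH MB 114 to 328 CPM, so Enpp2 was as high in SHH MB 1 and 2 as in P7 cerebella where the myelin sum was lower. The part of oligodendrocytes or of these other cells in the Enpp2 levels was not tested.

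**Figure D4:**
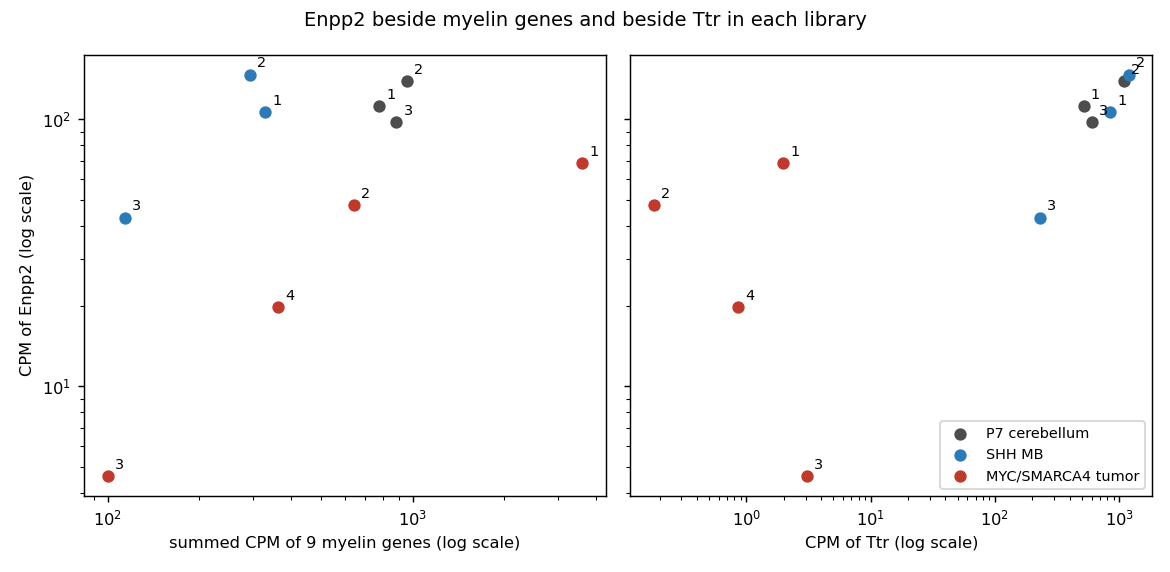
CPM of Enpp2 in every library against the summed CPM of 9 myelin genes and against the CPM of Ttr (all axes log scale, digits are replicates). Among MYC/SMARCA4 tumors Enpp2 is highest in tumor 1 (68.4 CPM) and lowest in tumor 3 (4.62 CPM), as is the myelin sum, while Ttr is highest in tumor 3 (3.08 CPM).

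SHH MB 3 had the lowest CPM of its group for all 8 genes, with SHH MB 2 higher by 5.19-fold for Ttr, 4.77-fold for Sostdc1, 3.58-fold for Kl, 3.43-fold for Enpp2, 2.53-fold for Folr1, 2.38-fold for Clic6, 1.97-fold for Aqp1 and 1.66-fold for Prlr. Between the highest and the lowest P7 cerebellum the difference ran from 1.13-fold for Aqp1 to 2.19-fold for Sostdc1. Without SHH MB 3, the log2 difference of Ttr between SHH MB and P7 cerebella was 0.49 in place of 0.03, and no marker was called. MYC/SMARCA4 tumors compared with the other 2 SHH MB had a log2 fold change of -9.39 for Ttr (edgeR adjusted p = 0.000150) and -2.11 for Aqp1 (edgeR adjusted p = 0.0609). The same library was also lowest of the SHH MB in the summed level of 10 genes of multiciliated ependymal cells, which line the ventricles, with 43.3 CPM beside 67.3 and 73.0 CPM. It was lowest as well for the myelin genes (114 CPM beside 293 and 328 CPM) and for the Purkinje cell genes (319 CPM beside 548 and 582 CPM). For endothelium (226 CPM beside 183 and 221 CPM) and for fibroblasts and meninges (560 CPM beside 461 and 499 CPM) it was highest. The summed genes of mature granule neurons and of the granule cell lineage were also highest in SHH MB 3. MYC/SMARCA4 tumors had 51.7 to 83.0 CPM of these ependymal genes and P7 cerebella 85.0 to 120 CPM. Dnah11 alone held 22.7 to 72.1 CPM in the MYC/SMARCA4 tumors, a large but uneven part of their sums. It was the only 1 of the 10 with a positive log2 fold change against P7 cerebella (0.53), and 9 were negative. Exons of Dnah11 overlap Cdca7l on the opposite strand, so its counts may be shared if strand was not used. The part of ependymal or other tissue in the marker levels was not tested.

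Markers of other cells of the tissue moved in both directions. In MYC/SMARCA4 tumors against P7 cerebella, the median log2 fold change was -1.84 over the 10 ependymal genes, with 1 called lower and 3 lower at an adjusted p of at most 0.05, and 0.30 over the 9 myelin genes, with none called. It was -0.11 over 8 endothelial genes and -0.47 over 8 genes of fibroblasts and meninges, with none called in either. Over 6 erythrocyte genes the median was -0.19 and over 6 genes of the granule cell lineage -0.66, with 1 called lower in each. The 6 genes of mature granule neurons and the 6 genes of Purkinje cells had medians of 2.60 and 1.61, with none called, but 4 of the 6 granule neuron genes were higher at an adjusted p of at most 0.05. Over all genes tested, 0.2% were called lower and 0.0901% higher, and 2.27% and 3.99% passed an adjusted p of 0.05 on these sides. The positive medians do not describe every tumor, since the myelin sums of tumors 2, 3 and 4 and the Purkinje and granule neuron sums of tumor 3 lay below every P7 cerebellum.

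Over the 6 SHH MB and P7 libraries, Pearson correlations of log2 CPM with Ttr were 0.97 for Kl, 0.95 for Sostdc1, 0.94 for Folr1 and for Enpp2, 0.87 for Aqp1, 0.85 for Clic6 and 0.50 for Prlr. Over all 10 libraries they were 0.93 for Aqp1, 0.88 for Clic6, 0.83 for Sostdc1, 0.79 for Kl, 0.78 for Folr1, 0.74 for Prlr and 0.67 for Enpp2. These values are descriptions, since the libraries of a group share tissue and preparation, and those over 10 libraries mainly reflect the gap between the MYC/SMARCA4 tumors and the rest. Enpp2 thus followed Ttr closely in the 6 libraries, and least of the 7 genes once the tumors were included.

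Among the 29944 other genes tested, those with the pattern most like Ttr over the 10 libraries were Adgrg6 (Pearson r = 0.98), Tmem72 (0.98), Gm16152 (0.97), Prkcq (0.97), Gm34353 (0.96), Col9a3 (0.96), Gm45990 (0.96) and Gm34588 (0.96). Tmem72 and Col9a3 are in the lists of other choroid plexus genes used here. Each of the other 7 markers had a different gene nearest to it, namely Gm32186 for Folr1 (r = 0.99), Kank4os for Kl (0.97), 9030607J07Rik for Clic6 (0.97), Bpifb2 for Aqp1 (0.98), Wipi1 for Enpp2 (0.98), Ccdc162 for Prlr (0.98) and Barx2 for Sostdc1 (0.98). The 8 markers themselves were left out of this ranking.

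To set the 8 markers beside other genes of the epithelium, 42 other choroid plexus genes in 5 lists were examined in the same fit. Whether each of them is particular to this epithelium was not tested. Atp1b1 reached up to 1558 CPM and Igf2 up to 2185 CPM in MYC/SMARCA4 tumors, beside at most 250 and 300 CPM in P7 cerebella. The signs and medians over the 42 genes thus need not describe the epithelium. Against P7 cerebella, 25 had negative and 17 positive log2 fold changes in MYC/SMARCA4 tumors, with a median of -0.45. The calling rule was met on the low side by 3 of the 42, beside 0.2% of all genes, and on the high side by none. The groups did not overlap for 11 of the 42 on the low side, beside 10.7% of all genes. Against SHH MB, 29 were negative and 13 positive with a median of -0.44, 4 were called lower, beside 0.477% of all genes, and none higher. In that comparison 10 did not overlap on the low side, beside 8.3%. An adjusted p of at most 0.05 was reached by 6 of the 42 in each comparison, all on the low side, beside 2.27% and 2.26% of all genes. Between SHH MB and P7 cerebella none of the 42 was called in the edgeR test, and none had an adjusted p of at most 0.05.

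The called genes were Htr2c, Tmem72, Col9a3 and Cldn2. Htr2c, the serotonin receptor of this epithelium, had 10 to 29 counts in MYC/SMARCA4 tumors, 123 to 304 in P7 cerebella and 65 to 269 in SHH MB, and fell by 3.22 and 2.87 on the log2 scale (edgeR adjusted p = 0.00205 and 0.00244). Tmem72, a transmembrane protein of unclear function, fell by 3.31 and 3.87 (edgeR adjusted p = 0.00307 and 0.000635). Col9a3, a collagen chain, fell by 3.11 and 3.55 (edgeR adjusted p = 0.000138 and 1.72e-05). For these 3 genes the MYC/SMARCA4 tumors lay below every library of both other groups. Cldn2, the pore-forming claudin of its tight junctions, fell by 2.64 against SHH MB (edgeR adjusted p = 0.00823), and its log2 fold change against P7 cerebella was -1.12 (adjusted p = 0.167).

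By list, epithelial structure genes lay lowest, with 8 of 9 negative and a median of -1.25 against P7 cerebella. The 11 other transporters and channels had a median of 0.17, the 8 other secreted proteins -0.19, the 9 receptors and enzymes -0.40 and the 5 transcription factors 0.02. Against SHH MB the order was another one, with the transcription factors lowest (5 of 5 negative, median -1.01), the epithelial structure genes at -0.70 and the receptors and enzymes at -0.31. Kcnj13, the potassium channel of the apical membrane, and Otx2, a transcription factor of choroid plexus development that is also active in medulloblastoma cells, are named after their values were seen. Kcnj13 had 55.3, 35.8, 14.6 and 38.2 CPM in the 4 tumors and 20.5 to 27.8 CPM in P7 cerebella, with a log2 fold change of 0.61 (edgeR adjusted p = 0.299). Otx2 had 12.4, 115, 98.6 and 13.1 CPM in the tumors and 30.7 to 34.1 CPM in P7 cerebella, with a log2 fold change of 0.89 (edgeR adjusted p = 0.386). In both genes the tumors spanned the range of the P7 cerebella, and neither passed the test. Exons of Kcnj13 overlap Gigyf2 on the opposite strand. Those of Otx2 overlap Gm49154 on its own strand and Gm63043 and Otx2os1 on the other. The counts of Kcnj13 and Otx2 may therefore be shared with these genes if strand was not used.

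**Figure D5:**
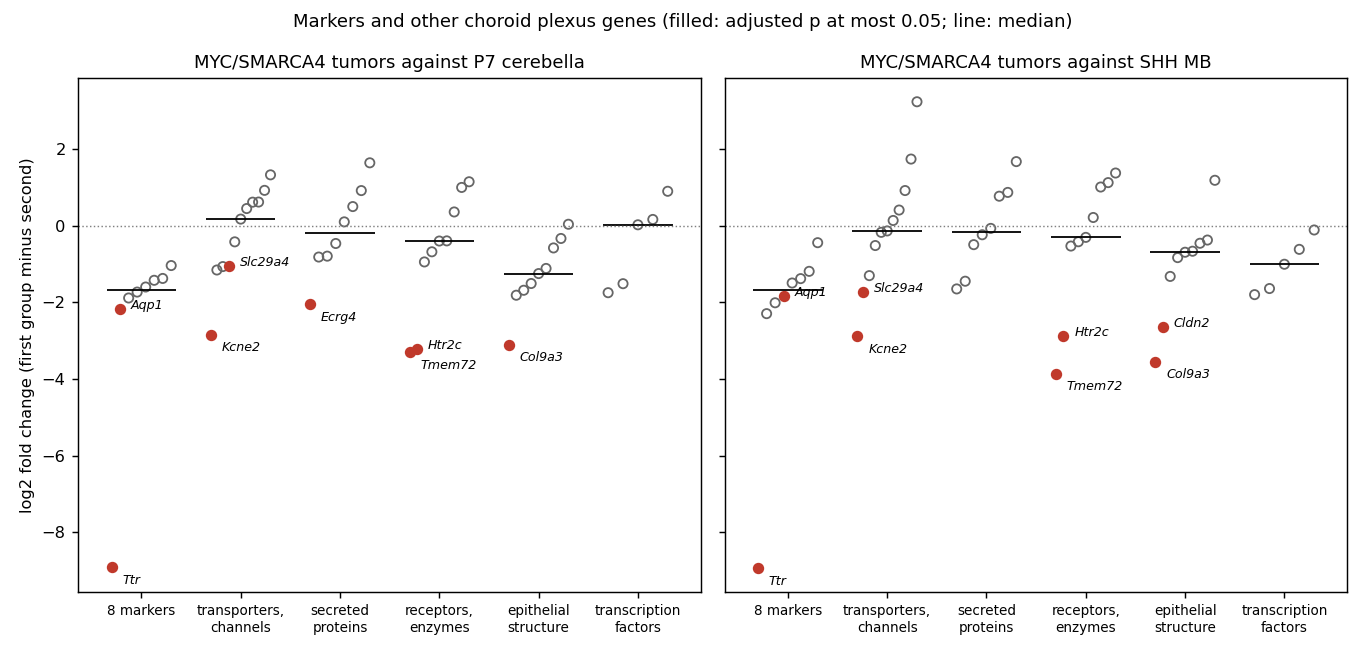
Log2 fold changes of the 8 markers and of 42 other choroid plexus genes in 5 lists, for MYC/SMARCA4 tumors against P7 cerebella and against SHH MB, with filled points at an adjusted p of at most 0.05 and lines at the list medians. The medians of the 8 markers are -1.67 in both panels, and those of the other lists lie between -1.25 and 0.17.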

How the data were processed

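RNA-seq of FFPE tissue was examined in 10 libraries of 3 groups. Per the labels and the study's methods, the authors trimmed reads with Trimmomatic 0.38.1, aligned them to GRCm39 with STAR 2.7.8a and counted them per gene with featureCounts 2.0.1, and they deposited raw counts for 50559 genes per library. Strand setting and annotation release are not given in the sources used here. A deposited table of log2-scale variance-stabilized values (DESeq2, by the authors) was used for 1 alternative only.

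Counts were fitted with edgeR 4.0.16 (R 4.3.3) in 1 model of 3 group means with TMM factors, filterByExpr and glmQLFTest, and p-values were adjusted over 29952 genes. Genes were called at a log2 change of 2.5 or more in size with adjusted p up to 0.01. Log2 CPM used a prior count of 2. The functions were checked on simulated counts. Alternatives were DESeq2 1.42.0, limma 3.58.1 on the deposited log2 values, other scaling, filters and thresholds, a replicate block, 2-group fits and leaving out each library. Gene positions came from GENCODE (GRCm39), promoter windows from RefSeq (GRCm38.p6).

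Named genes were the 8 markers, those of the other choroid plexus genes that met the calling rule, the 8 genes most correlated with Ttr, the nearest gene of each other marker, and Myc and Smarca4. Markers and lists were chosen with earlier results of these data known. Kcnj13, Otx2, Atp1b1, Igf2, Mbp, Mog and Dnah11 were named beyond that rule. The remaining genes of other cell type lists are given as counts and sums. A gene of these lists is not reported here and was left out of its list. Same-numbered libraries did not deviate together, so no pairing was used.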

Additional observations from a re-analysis of the deposited data

Results flagged for a closer look

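Among 33 groups of 4 samples that were tested with Dixon's test for a single outlying sample, 2 had a sample beyond the 95% critical value, where chance gives about 1 in 20. The first was the summed level of 10 genes of multiciliated ependymal cells in MYC/SMARCA4 tumors, with 83.0 CPM in tumor 1 and 51.7 to 55.9 CPM in the other 3. Dnah11 alone reached 72.1 CPM in tumor 1, so most of the sum in that tumor came from a single gene. The second was the summed level of 9 myelin genes of oligodendrocytes, again in tumor 1, with 3610 CPM beside 100.04 to 641 CPM in the other 3. None of the 8 choroid plexus markers had such a sample.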

How the results depend on the processing

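Ttr was called lower in MYC/SMARCA4 tumors under every alternative in which it was tested, with log2 fold changes from -9.79 to -7.98 against P7 cerebella and from -9.82 to -7.82 against SHH MB, and adjusted p-values of at most 0.00893 and 0.0031. A filter of at least 10 counts in every library removed Ttr and 3 other markers, so 0 were called in either comparison. Leaving out single libraries gave 1 to 2 called markers in each, with Aqp1 added without tumor 3 and Clic6 without tumor 1. No marker was called between SHH MB and P7 cerebella under any alternative. The log2 fold changes of all 8 markers stayed negative in MYC/SMARCA4 tumors throughout.

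Signs turned only for uncalled differences between SHH MB and P7 cerebella. Ttr was -0.16 with limma on the deposited log2 values, -0.027 with the replicate block and -0.46 to 0.49 when single libraries were left out, including -0.17, -0.08 and -0.02. Leaving out single libraries gave -0.034 to 0.51 for Folr1, -0.52 to 0.34 for Kl, -0.63 to 0.15 for Enpp2 and -0.16 to 0.85 for Sostdc1, and Kl was 0.0088 with no filter. The cause was not tested. With the replicate block, 1, 1 and 0 markers were called in the 3 comparisons, and 21, 133 and 0 of all genes instead of 87, 180 and 3. Same-numbered libraries correlated by -0.27 to 0.16, above 0.1 in 1 of 9 pairs.

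Counts over all genes moved more than those of the markers. DESeq2 called 483, 509 and 49 genes, no filter gave 181, 288 and 14, limma 58, 136 and 12, and 2-group fits 24, 78 and 77. Without tumor 3 there were 1075, 683 and 22 calls, and without P7 cerebellum 2 there were 23, 139 and 0. Of the 8 genes nearest to Ttr, 5 remained with at least 10 counts in every library. Without Enpp2, an alternative chosen after seeing the data, the mean share of Ttr rose to 90.9% in SHH MB and 91.3% in P7 cerebella. Marker levels of a few counts per tumor limit the precision of every fold change given for Ttr, Folr1 and Sostdc1.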
